A study of Caenorhabditis elegans with 4 samples.

Results

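Divergent promoter sites lie in or near the stretch between a gene that runs to the left and a gene that runs to the right. They are regions of a list ranked by the signal of a chromatin immunoprecipitation. They were chosen by the deposited signal value of the ChIP-seq regions and by their position. From the pooled list of K09A11.1 the 3000 nuclear regions with the highest signal were taken, and 333 whose summit lay within 200 bp of a tRNA, snoRNA, snRNA or miRNA gene were left out. A site was kept where its summit, the position of highest signal in the region, fell in the promoter windows of a minus-strand gene and of a plus-strand gene with its 5′ end further right. A promoter window covered 1000 bp before and 200 bp after an annotated protein-coding 5′ end. The rule gave 375 sites among the 3000 regions and among the 29974 nuclear regions of the pooled list. Of the other regions, 963 lay in promoter windows without such a partner and 1329 lay away from promoters.

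The worms were hermaphrodites of strain OP372, with the genotype unc-119(tm4063) III and the integrated transgene wgIs372, taken as whole organisms at the late embryonic stage with their age not known. In all of them a GFP and FLAG tag followed the C-terminal end of K09A11.1, chromatin was sheared by sonication, and an antibody to GFP was used. There was 1 group of 4 libraries, with 2 technical ones for each of 2 biological replicates, and both replicates were set against the same control. The transgene is 1 integrated line, the recovered cells are those of the whole embryo, and no tag-alone or other-protein library was analysed here. The lists hold no read counts, so depth is unknown, and in each ranked list the regions number 30000.

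Divergent gene pairs share the stretch of DNA between their 5′ ends, so a factor bound there stands upstream of both genes at once. In Caenorhabditis elegans many annotated 5′ ends are sites of trans-splicing, where a leader is joined to the transcript, and transcription starts some distance upstream of them. K09A11.1 is annotated as a protein with a BED-type zinc finger, a fold that binds DNA in many eukaryotic proteins. No site lay in its own promoter window: 0 regions of the pooled list have their summit there.

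Summit sequences of some of the 25 highest sites are shown because an element with a fixed gap recurs among these sites. Each is the plus strand from 50 bp left to 50 bp right of the summit, read from the RefSeq WBcel235 assembly, which is the build ce11. Capitals mark the fixed letters of the gapped motif GCNNNNTTGC and of its longer forms GCGGCNNNNTTGC and GAGCGCNNTTGC, on either strand, where N is any base.
mlcd-1/idhg-1, chrIII:4568689-4568789: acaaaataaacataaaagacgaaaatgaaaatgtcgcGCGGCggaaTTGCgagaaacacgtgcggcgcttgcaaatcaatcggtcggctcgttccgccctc
ecps-1/atx-2, chrIII:10461262-10461362: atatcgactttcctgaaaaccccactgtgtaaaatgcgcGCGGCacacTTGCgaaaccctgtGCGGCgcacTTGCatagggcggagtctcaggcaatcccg
gei-6/krr-1, chrV:7230981-7231081: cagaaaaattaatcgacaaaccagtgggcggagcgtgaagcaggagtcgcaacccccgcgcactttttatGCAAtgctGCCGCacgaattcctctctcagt
mrg-1/spcs-2, chrIII:12874820-12874920: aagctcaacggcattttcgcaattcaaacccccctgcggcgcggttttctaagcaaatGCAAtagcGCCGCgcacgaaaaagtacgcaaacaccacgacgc
fbxc-44/C16A11.2, chrII:4238047-4238147: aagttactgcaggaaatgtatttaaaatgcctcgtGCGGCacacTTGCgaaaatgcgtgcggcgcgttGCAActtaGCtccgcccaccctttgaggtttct
fbxl-3/mog-5, chrII:5399319-5399419: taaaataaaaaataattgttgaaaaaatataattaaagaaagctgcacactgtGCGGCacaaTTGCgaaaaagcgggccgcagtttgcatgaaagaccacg
rnf-121/C16C10.4, chrIII:4171105-4171205: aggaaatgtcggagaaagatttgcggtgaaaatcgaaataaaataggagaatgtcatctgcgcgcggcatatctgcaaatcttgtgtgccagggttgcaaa
K01G5.10/tasp-1, chrIII:10759189-10759289: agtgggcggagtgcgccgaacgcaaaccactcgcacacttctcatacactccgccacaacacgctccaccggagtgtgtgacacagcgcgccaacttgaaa
rpl-20/Y17G9B.5, chrIV:4750011-4750111: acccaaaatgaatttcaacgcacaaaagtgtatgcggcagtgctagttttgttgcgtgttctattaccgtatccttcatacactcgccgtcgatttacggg
The first 6 hold the form GCGGCNNNNTTGC, and the ecps-1/atx-2 window holds it 2 times. The last 3 are shown as sites of like signal with no match to these letters in the window. Of the 25 highest sites 14 held the short form, so the windows shown are a selection and not in proportion.

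The motif lay at 94 of the 375 summits (25.1%) in its short form. Its letters were read from the summit sequences of the highest sites and from the gapped words counted below, so its frequency at these summits is a description. The short form stood in 11 windows (2.93%) centred 200 bp to the left of the summits and in 12 (3.20%) to the right. Of windows of the same length centred 150 bp upstream of every protein-coding 5′ end, 3.97% held it. The form GCGGCNNNNTTGC was at 25 sites (6.67%), in 1 left flank and in 0 right flanks, and in 33 of 19973 promoter windows (0.165%). The form GAGCGCNNTTGC was at 21 sites (5.60%), in 0 flanks on either side, and in 0.541% of promoter windows. This form was also at 22 of 963 summits of promoter sites without a divergent partner (2.28%), and at 8 of 1329 away from promoters (0.602%). Both longer forms contain the short one, and 1 site, Y62E10A.20/Y62E10A.23, held both. At promoter sites without a divergent partner GCGGCNNNNTTGC was at 17 of 963 summits (1.77%), and away from promoters at 4 of 1329 (0.301%).

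The distance of the longer forms from the summit was measured inside the summit window, which sets an upper limit on it. At the 25 sites with GCGGCNNNNTTGC the centre of the nearest match was a median of 11.0 bp from the summit, and 18 lay within 20 bp. At the 21 sites with GAGCGCNNTTGC the median was 21.5 bp, and 9 lay within 20 bp. The motif had no fixed direction relative to the genes: GCGGCNNNNTTGC read along the gene of the nearer 5′ end at 15 sites and against it at 10. GAGCGCNNTTGC read along that gene at 8 sites and against it at 13.

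The 2 forms differed in where they stood in the signal order. GCGGCNNNNTTGC was at 13 of the 25 highest sites and at 12 of the 350 that follow (3.43%). In 3 equal parts of the signal order, from high to low, it was at 24, 1 and 0 of 125 sites, while GAGCGCNNTTGC was at 11, 3 and 7. The median pooled signal was 75.2 with GCGGCNNNNTTGC and 22.8 without it, 32.1 with GAGCGCNNTTGC and 23.7 without it. All 25 sites with GCGGCNNNNTTGC were listed in both replicate lists, against 69.4% of sites without it. Signal ranked the sites in the first place, so these values are given with no test.

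Taken over the 6 nuclear chromosomes, the form GCGGCNNNNTTGC occurs 825 times, and 51 of these matches had 1 of the 3000 regions with its summit within 50 bp (6.18%). In the windows of divergent pairs there were 46 matches, and 28 of them had such a region (60.9%), 27 of these with a region among the 500 highest. In other promoter windows 18 of 196 matches had such a region (9.18%), and away from promoters 4 of 578 (0.692%). The form GAGCGCNNTTGC occurs 2055 times, with 62 matches at 1 of the 3000 regions (3.02%). Of its matches in divergent windows 26 of 124 had a region (21%), in other promoter windows 26 of 583 (4.46%), and away from promoters 9 of 1334 (0.675%). The short form occurs 45965 times, with 367 matches at 1 of the 3000 regions (0.798%), and in divergent windows 124 of 1243 (9.98%). For each form the letters alone went without one of the 3000 regions at most of their places in the genome. Of these 3 locations the divergent windows had the highest share with a region. The motif was drawn from divergent sites, so the order of these shares is not independent of how the letters were found.

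**Figure D1:**
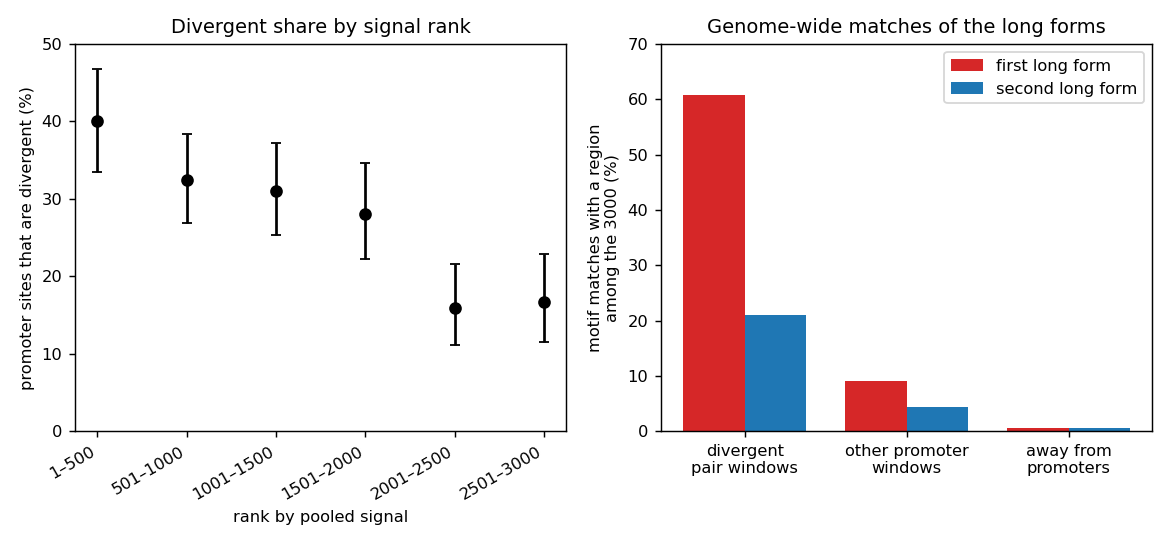
Left, percent of promoter sites among the regions of each block of 500 ranks by pooled signal that are divergent, with exact 95% binomial intervals. It is 40.0% in ranks 1 to 500 and 16.7% in ranks 2501 to 3000. Right, percent of all nuclear matches of the long forms of the motif (first, red; second, blue) with 1 of the 3000 regions at them, by location. It is 60.9% for the first form in divergent pair windows.

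The highest site of all nuclear regions lay between mlcd-1, which encodes mitochondrial malonyl-CoA decarboxylase, and idhg-1, which encodes a subunit of the mitochondrial NAD-dependent isocitrate dehydrogenase of the citric acid cycle. Its signal was 216 in the pooled list, 169 in replicate 1 and 50.7 in replicate 2. The 5′ ends are 667 bp apart, and the summit lay 58 bp upstream of idhg-1. The second, at ecps-1/atx-2, had 185 in the pooled list, 132 in replicate 1 and 51.9 in replicate 2. RefSeq annotates ecps-1 with the domain of the proteasome adaptor Ecm29, and atx-2 is the worm ataxin-2, an RNA-binding protein. The third, ears-2/uncp-18, had 162, 110 and 56.9 in the same order, in a gap of only 92 bp. The gene ears-2 encodes the mitochondrial glutamyl-tRNA synthetase.

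Next came rnf-121/C16C10.4, with 139 in the pooled list, 91.0 in replicate 1 and 53.3 in replicate 2. The minus-strand gene encodes an E3 ubiquitin ligase and the other a SAP18-like subunit of a histone deacetylase complex. At K01G5.10/tasp-1 the values were 134, 68.4 and 64.5. The gene tasp-1 encodes the worm homolog of taspase, a protease. At spe-48/Y51F10.11 they were 129, 87.8 and 37.8. The site gei-6/krr-1 had 107, 78.1 and 26.6, and krr-1 encodes a component of the small-subunit processome, which assembles ribosomal subunits.

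The eighth site lay between Y22D7AL.10, annotated as the mitochondrial heat shock protein of 10 kDa, and hsp-60, the mitochondrial chaperonin. These proteins are partners in protein folding, and their genes share this 813 bp interval. The signal was 103 in the pooled list, 64.4 in replicate 1 and 37.1 in replicate 2, with the summit 188 bp from the 5′ end of Y22D7AL.10 and 625 bp from that of hsp-60. Only 8 sites exceeded 100 in the pooled list, 50 exceeded 50, and 119 were under 20.

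Of the remaining 17 of the 25 highest sites, 7 had a gene of the machinery lists described below in the pair (41.2%). Among all 25 it was 9 (36.0%), near the 145 of all 375 sites (38.7%). The sites included mrg-1/spcs-2 with 93.9 (mrg-1 is a chromodomain protein, spcs-2 a signal peptidase subunit) and erfa-3/math-33 with 86.2 (erfa-3 has the GTPase domain of translation factors, math-33 is a ubiquitin hydrolase). They also included rpl-20/Y17G9B.5 with 85.7, rpl-15/K11H12.8 with 83.9, F49C12.9/rpn-7 with 75.2 and iff-2/F54C9.14 with 72.7. The genes rpl-20 and rpl-15 encode proteins of the large ribosomal subunit, rpn-7 a subunit of the proteasome lid, and iff-2 the translation factor eIF5A. Others lay at dad-1/tre-1 (93.1), nmad-1/hach-1 (92.7), R107.5/cls-2 (91.3) and dnj-29/ndua-2 (88.8). The genes dad-1, tre-1 and ndua-2 encode an oligosaccharyltransferase subunit, a trehalase and a subunit of respiratory complex I. The list is completed by B0495.9/sre-1 (80.3), fbxc-44/C16A11.2 (79.3), fbxl-3/mog-5 (77.3), clec-53/uba-5 (76.6), his-67/his-68 (74.4), larp-1/wip-1 (73.1) and piit-1/sas-5 (70.5). All 25 stood in both replicate lists, and replicate 1 held the higher value at 24 of them. The exception was larp-1/wip-1, with 34.8 in replicate 1 and 41.5 in replicate 2.

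**Figure D2:**
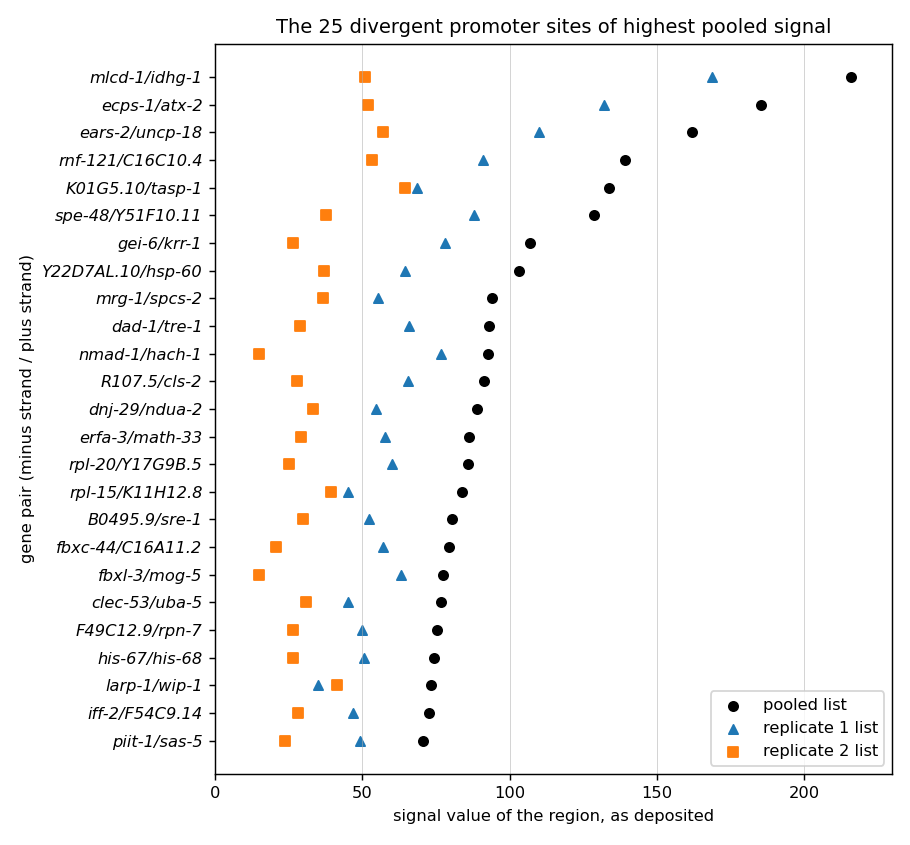
Deposited signal of the 25 divergent promoter sites of highest pooled signal in the pooled list (circles), the replicate 1 list (triangles) and the replicate 2 list (squares). The pooled values run from 70.5 to 216. The replicate lists are not scaled to each other.

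Over all 375 sites the pooled signal had a lowest value of 16.1, a median of 23.7 and a highest value of 216. The deposited −log10 q-value of these sites had a lowest value of 0.335, a median of 1.35 and a highest value of 2.9987. A region of the replicate 1 list lay within 100 bp of the summit at 333 sites (88.8%), with a median signal of 15.6. For replicate 2 it was 306 sites (81.6%), with a median of 10.9. Both lists held the site at 268 (71.5%), 65 were listed for replicate 1 alone, 38 for replicate 2 alone, and 4 for neither. The share in both lists was 61.1% at other promoter sites and 51.4% away from promoters. The authors' thresholded list held 116 of the 375 sites (30.9%), and 22.1% of all 3000 regions. The replicate lists and the thresholded list come from the same reads as the pooled signal that chose the sites, so nothing is read from these shares.

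At the limit, the last site inside the 3000 was clec-87/rsa-1, at rank 2995 with a signal of 16.08. The first outside was hip-1/mlc-5, at rank 3003 with 16.06. The proportion of promoter sites that are divergent was 28.0% over the 3000 regions (exact 95% interval 25.6 to 30.5). It was 40.0%, 32.5%, 31.0%, 28.1%, 15.9% and 16.7% in successive blocks of 500 ranks. In ranks after 3000 it was 10.5%. Over the whole pooled list, 1211 of 29974 nuclear regions (4.04%) met the positional part of the rule, against 375 of 3000 (12.5%) among the highest. The signal order is part of the rule, so these shares describe the list.

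The 375 sites belong to 367 distinct gene pairs and touch 763 genes. At 345 sites 2 genes qualified, at 29 sites 3 genes and at 1 site 4. There were 8 pairs with 2 sites each, and at 7 of them both sites were assigned the same 5′ ends. At dnj-29/ndua-2 the sites were 203 bp apart, with 88.8 and 19.5. At sec-61.A/rps-18, a translocon subunit gene and a gene of the small ribosomal subunit, they were 217 bp apart, with 49.9 and 21.5. Only the summit of the weaker site lay between these 5′ ends, and the stronger one lay in an exon past the 5′ end of sec-61.A.

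The summit usually lay between the paired 5′ ends. That was so at 335 sites (89.3%), while 21 summits lay past the minus-strand 5′ end and 19 past the plus-strand one. The 5′ ends were a median of 515 bp apart (quartiles 334 and 769, range 20 to 1755). The nearer 5′ end was a median of 146 bp from the summit (quartiles 68 and 216) and the farther one 361 bp. The nearer end was on the minus strand at 182 sites and on the plus strand at 193. At 309 sites (82.4%) the summit was within 250 bp of at least 1 of the 5′ ends, and at 97 (25.9%) of both. The promoter window sets an upper limit on these distances.

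The nearer 5′ end was farther from the summit where the gap was wider. Pairs up to 200 bp apart had a median of 43 bp to the nearer 5′ end, those of 200 to 400 bp had 80, those of 400 to 600 bp had 162.5, and those over 1000 bp had 330. The Spearman coefficient of spacing with this distance was 0.64 over the 375 sites, a description in which a wider gap allows a longer distance. The signal had a coefficient of -0.05 with spacing. The median summit was 107.5 bp from the midpoint, and 202 (53.9%) lay in the central part of the interval, from 0.25 to 0.75 of its length.

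**Figure D3:**
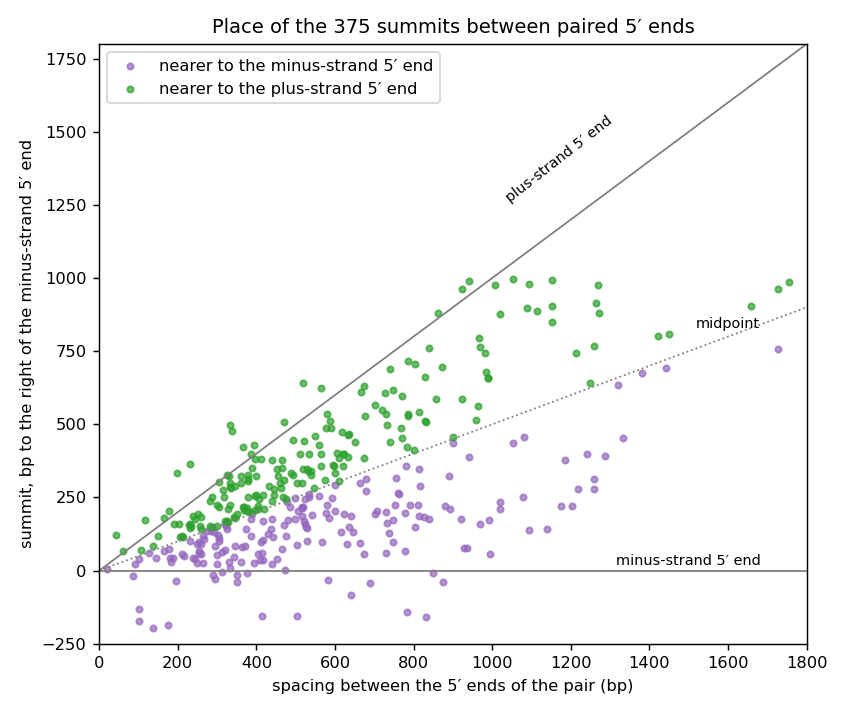
Each point is 1 of the 375 sites, with the spacing of its paired 5′ ends (bp) and the distance of the summit to the right of the minus-strand 5′ end (bp). Solid lines mark the 5′ ends and the dotted line the midpoint. Of the summits, 335 lie between the solid lines.

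The annotation of the 6 nuclear chromosomes holds 2704 divergent pairs with 5′ ends up to 2000 bp apart and no other protein-coding 5′ end between them. A divergent promoter site lay at 364 of these (13.5%). The share was 9.52% of pairs up to 200 bp apart, 22.0% of those from 200 to 400 bp and 22.0% from 400 to 600 bp. It was 16.5% from 600 to 800 bp, 13.6% from 800 to 1000 bp and 4.10% beyond. Pairs with a site had a median spacing of 501 bp and those without one 719.5 bp. The stretch in which a summit qualifies lengthens with spacing up to 800 bp and then shortens towards 2000 bp. The rule therefore sets part of these shares and medians. By chromosome the share was 19.8% on I, 12.8% on II, 19.2% on III, 12.6% on IV, 8.22% on V and 8.02% on X. The X chromosome held 16 of the 375 sites (4.27%), 6.92% of the annotated pairs and 18.7% of the promoter sites without a divergent partner.

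Of all 19973 protein-coding genes 3.82% had a divergent promoter site, and of the 5365 genes in an annotated divergent pair 13.6%. The 868 genes of 16 lists of cell machinery had 167 with a site (19.2%), and 161 of the 441 that stand in a divergent pair (36.5%). Those 167 are 21.9% of the 763 genes at the sites, and 145 of the 375 sites (38.7%) had at least 1 machinery gene in the pair. The 2173 genes of 6 other lists had 15 (0.690%). Promoter sites without a divergent partner lay at 11.6% of machinery genes and at 4.74% of all protein-coding genes. The higher share in machinery genes was therefore not limited to divergent sites. Translation factors (20.5%) and replication and cell cycle genes (10.9%) had equal shares at both kinds of site. Chromatin factors had more at sites without a partner (12.5%). All other machinery lists had less there, ribosomal proteins 23.2%. The lists were drawn up from gene symbols with earlier results of these data known, so the counts describe the sites. Intervals below are exact 95% binomial intervals, which treat the genes as independent although paired genes share a site.

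A site lay at 37 of 82 ribosomal protein genes (45.1%, interval 34.1 to 56.5), the highest share of these lists, among them 24 of 47 for the large subunit with the prefix rpl and 13 of 31 for the small subunit with the prefix rps. Of the 49 ribosomal protein genes in an annotated divergent pair, 37 had a site (75.5%), beside 13.6% for all genes in such pairs. The highest were rpl-20 (85.7 in the pooled list), rpl-15 (83.9, with 45.2 in replicate 1 and 39.4 in replicate 2) and rps-1 (69.2, with 43.6 and 24.5). Without replicate 2 the count was 24 (29.3%), under the 18 of 51 chaperone genes (35.3%) in the same setting. The nearer 5′ end belonged to the ribosomal protein gene at 13 of the 37, and counting that gene alone gave 15.9%, under the 18.2% of proteasome genes. Mitochondrial ribosomal proteins had a site at 9 of 70 genes (12.9%), led by mrps-34 with 65.6.

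Chaperone genes, whose products fold proteins, had a site at 14 of 51 (27.5%, interval 15.9 to 41.7). They were led by hsp-60 and by dnj-29, a J-domain protein, with hsp-110 at 59.1. Proteasome genes had 9 of 33 (27.3%), with rpn-7 at 75.2, rpn-3 at 59.1 and rpt-2 at 39.7. Splicing genes had 13 of 43 (30.2%), with lsm-3 at 67.6, the SR protein gene rsp-3 at 39.2 and lsm-7 at 33.8. The summit counted for lsm-3 lay 959 bp from its 5′ end, at a site with 4 genes in reach, and cannot be given to lsm-3 alone. Among these 3 lists the share of genes in a divergent pair with a site was 51.9%, 40.9% and 48.0%.

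The list of the respiratory chain and ATP synthase had a site at 10 of 45 genes (22.2%), the highest being the cytochrome c oxidase subunit genes cox-6B (64.3) and cox-6C (51.6). This list takes in complex I genes with the symbol nuo and none of the 25 genes with the prefix ndu, of which 8 had a site, among them ndua-2 (88.8) and ndua-8 (55.4). That count was made after the values were seen. Translation factors had 8 of 39 (20.5%), and 5 without replicate 2. They were led by iff-2 and by eif-1.A with 37.0, a site with no region of the replicate 2 list within 100 bp. Genes of the nuclear pore and of transport through it had 8 of 40, and 5 without replicate 2, with the importin gene ima-1 at 63.3 and the nucleoporin gene npp-6 at 48.9. The list gene had the nearer 5′ end at 0 of these 8. Membrane traffic genes had 15 of 96 (15.6%), among them vps-32.1 (52.5) and rab-14 (52.0). Aminoacyl-tRNA synthetase genes had 4 of 32 (12.5%), with tars-1 at 19.0 far under ears-2.

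The lists of chromatin factors (7 of 64, 10.9%), transcription machinery (8 of 71, 11.3%), ubiquitin (8 of 61, 13.1%), mitochondrial import (2 of 13, 15.4%), and replication and cell cycle (6 of 55, 10.9%) had shares of 10.9 to 15.4%. Without replicate 1 the ubiquitin list had 4 genes with a site and the mitochondrial import list 0, and without replicate 2 the import list had 1. Their highest members were hda-1, a histone deacetylase (59.4), the gene with the symbol mdt-9 (67.6), uba-5 (76.6), timm-23 (24.8) and the kinase gene cdk-9 (43.4). The summit counted for hda-1 lay 947 bp from its 5′ end and 313 bp from that of ril-1. The site of mdt-9 has 4 genes in reach, and RefSeq annotates mdt-9 itself as a guanine nucleotide exchange factor and its neighbour Y62E10A.23 as Mediator subunit 9. Histone genes, most of which stand in divergent pairs, had a site at 9 of 73 (12.3%). Within annotated pairs the share was 9 of 65 genes (13.8%), near the 13.6% of all genes in such pairs.

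The 6 other lists hold gene families from outside the cell machinery, and where they are expressed was not examined here. Chemoreceptor genes had 7 of 1276 (0.55%), nuclear receptors 3 of 269 (1.12%), C-type lectins 3 of 240 (1.25%) and homeobox genes 1 of 79 (1.27%, interval 0.032 to 6.85, which takes in the 3.82% of all genes). Cuticle collagens had 1 of 169 (0.59%), which was col-71 with 19.1, and neuropeptide genes 0 of 140 (exact upper limit 2.60%). Several of these members share a site with a gene of another kind. The chemoreceptor gene sre-1 stood 937 bp from a summit that is 57 bp from B0495.9, and clec-53 shares its site with uba-5. Such a site cannot be given to either gene alone. Among genes in a divergent pair, with 13.6% for all such genes, chemoreceptor genes had 2.54%, cuticle collagens 2.22%, C-type lectins 3.70%, nuclear receptors 6.67% (3 of 45) and homeobox genes 9.09% (1 of 11). Without replicate 1 the collagens had 2 genes with a site, and without replicate 2 the lectins had 5 and the homeobox genes 0.

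**Figure D4:**
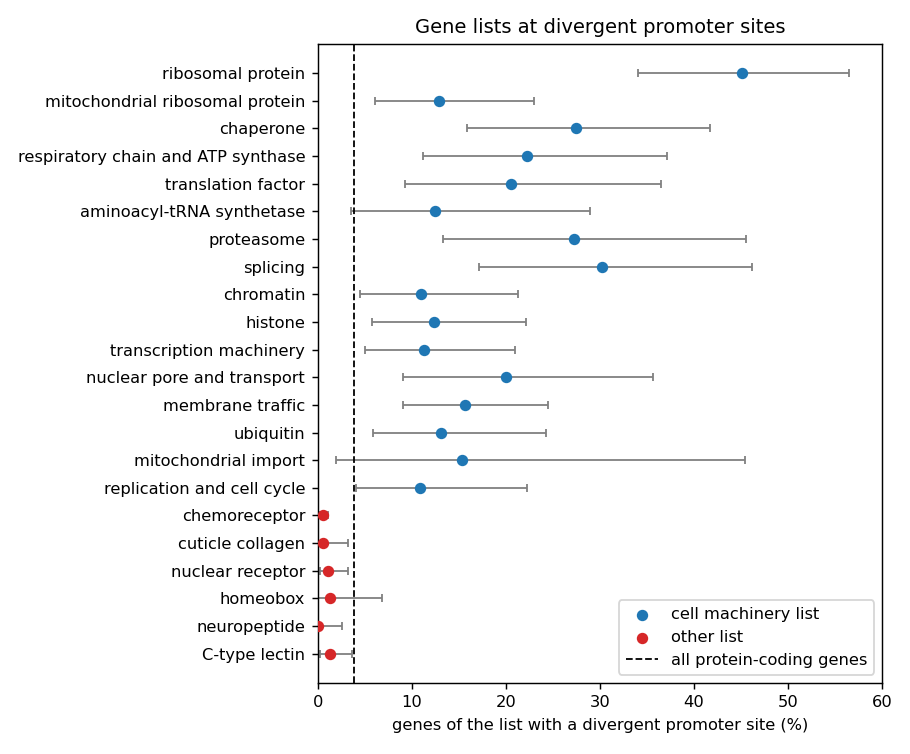
Percent of the genes of each list with a divergent promoter site, with exact 95% binomial intervals (bars), for the cell machinery lists (blue) and other lists (red). The dashed line marks 3.82%, the value for all protein-coding genes. Ribosomal proteins are at 45.1%.

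Of annotated pairs with exactly 1 gene of the machinery lists, 125 of 316 had a site (39.6%), and of pairs with none, 221 of 2321 (9.52%), beside 13.5% of all pairs. Pairs with both genes in these lists had 18 of 67 (26.9%). That set holds 31 pairs of histone genes, of which 4 had a site (12.9%), and of the other 36 pairs 14 had one (38.9%). At the 126 sites with exactly 1 such gene in the pair, it had the nearer 5′ end at 57.

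Of the 18 pairs with both genes in the lists, 8 had both in the same list and 10 joined genes of different lists. The highest was his-67/his-68, a histone H4 gene beside a histone H2A gene, with 74.4 in the pooled list, 50.6 in replicate 1 and 26.5 in replicate 2. At hsp-110/rpn-3, a chaperone and a proteasome subunit, the values were 59.1, 40.0 and 14.2. At rpt-2/aps-1, a proteasome ATPase and a clathrin adaptor subunit, they were 39.7, 22.0 and 14.3, with the summit 151 bp from one 5′ end and 150 bp from the other. Both are SR splicing protein genes at rsp-2/rsp-1, with 32.5, 13.2 and 15.2. Pairs of ribosomal protein genes were rps-10/rpl-24.1 (27.5 in the pooled list), rpl-39/rps-30 (24.9) and rps-14/rpl-36 (22.4), and both replicate lists held all 3. The first of them, rps-10/rpl-24.1, had 16.7 in replicate 1 and 13.5 in replicate 2.

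The remaining such pairs were sec-61.A/rps-18 (49.9 and 21.5 at its sites), rpl-36.A/nuo-1 (25.9), rpl-7A/set-21 (25.3), rpl-28/mrpl-49 (16.7), aps-3/rpl-17 (16.9), rab-11.1/rpl-7 (16.1), apb-1/mdt-19 (19.5), vps-25/uba-2 (17.3), his-31/his-32 (27.1), his-61/his-62 (22.5) and his-35/his-41 (20.7). The sites his-31/his-32, his-61/his-62, vps-25/uba-2 and aps-3/rpl-17 had no region of the replicate 2 list within 100 bp. Core histone genes are near-identical copies. Of the 32-base words within 50 bp of the summit, 0% recur in the genome at his-67/his-68, his-31/his-32, his-61/his-62 and his-35/his-41. How reads were placed among histone copies was not tested.

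There were 12 sites with GCGGCNNNNTTGC beyond the 25 highest, and 5 of these had a machinery gene in the pair (41.7%), beside 38.7% of all 375 sites. The 12 included haf-6/smg-2 (66.3, smg-2 acting in nonsense-mediated decay), mel-46/lsy-13 (63.2, lsy-13 an ING family gene), let-504/srrt-1 (63.1, a Serrate homolog), ril-1/hda-1 (59.4), ragc-1/Y24F12A.1 (70.3), mig-22/mtss-1 (67.5), mrps-34/cisd-3.1 (65.6), pvf-1/Y39A3CL.7 (54.7) and ndub-5/eif-2D, the lowest. Sites with GAGCGCNNTTGC included Y71H2AM.20/cox-6B (64.3), ska-3/rps-12 (47.8), fib-1/mut-15 (42.4, fib-1 encoding fibrillarin), rpt-2/aps-1 (39.7) and Y48B6A.1/rpl-43 (38.7). These names follow the motif and not the rule for named genes, and were chosen after their values were seen. A machinery gene stood in the pair at 20 of the 45 sites with either long form (44.4%) and at 125 of the 330 with neither (37.9%).

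G+C content peaked at the summits. In the window of 50 bp to each side the G+C content was 43.8% ± 9.88 (SD over 375 sites), against 33.9% in the left flank and 34.3% in the right. It was higher at the summit than in the flanks at 295 sites (78.7%). In bins of 20 bp it reached 46.7% next to the summit and was 32.3% at 150 bp to the left and 31.9% at 150 bp to the right. Other promoter sites had 41.8% ± 10.1 at the summit and sites away from promoters 39.1% ± 9.76. The regions left out for a small RNA gene had a higher value, 48.6% ± 8.12. The middle of annotated pairs up to 1200 bp apart with no region among the 3000 had 34.3%, and the middle of 346 pairs with a site 36.1%. In the same 3 parts of the signal order the mean was 49.0%, 43.7% and 38.6%. Recovery of fragments can depend on base composition, and its part in these values was not tested.

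**Figure D5:**
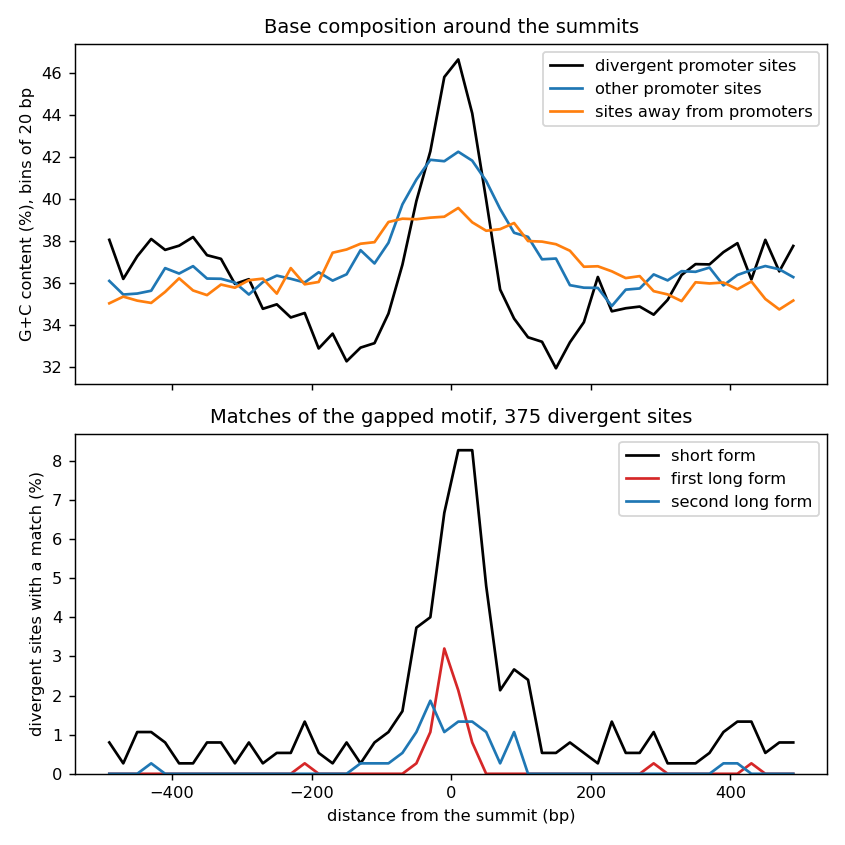
Top, mean G+C content (%) in bins of 20 bp by distance from the summit (bp), for divergent promoter sites (black), other promoter sites (blue) and sites away from promoters (orange). Bottom, percent of the 375 divergent sites with a match of the short (black), first long (red) and second long (blue) form of the gapped motif, by the distance of its centre. The black G+C line reaches 46.7% near the summit.

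Of 2080 words of 6 bases, with both strands merged, 114 were in at least 20 more summit windows than flanks, and 77 of these had 4 or more G or C, while 79 were in at least 20 fewer. The 5 leading words were GCGCAC at 68 summits (11 left and 5 right flanks), GCAAAC at 61 (9 and 20), CGCCGC at 58 (7 and 5), GAGCGC at 57 (7 and 7) and ACGCGC at 56 (5 and 3). They were picked for the largest difference between summit windows and flanks at these same sites. Their contrast with the flanks therefore follows from the choice. At least 1 of these words was at 195 summits (52.0%), in 8.80% and 10.1% of flanks and in 12.6% of all promoter windows. At the summits of promoter sites without a divergent partner the share was 29.2%, at those by small RNA genes 27.6% and away from promoters 15.1%. The A/T-rich word TTAAAA was at 18.7% of summits and in 34.4% and 36.8% of flanks. CACGTG, the letters of the E-box, was at 2.93% of summits and in 1.87% of each flank, and GATAAG, the letters of a GATA site, at 2.40%, against 2.67% and 3.20% in the flanks.

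Among longer words, of 8 bases, GCAAACAC was at 27 summits, GCGCTCCA at 25, AAGTGCGC at 24, GCGAGACC at 23, CTCCGCCC at 21 and CGCCGCAC at 20, none of them in more than 4 windows of either flank. CGCCGCAC stood at 17, 2 and 1 sites in the 3 parts of the signal order and in 28 of 19973 promoter windows. GCAAACAC stood at 9, 9 and 9. Letters with a gap were counted as pairs of 4 letters 1 to 10 bases apart. Of 263954 such gapped words 19 were in at least 20 more summits than flanks, and 11 of these had TTGC as an element, while 43 were in at least 20 more flanks than summits. The first were GCGC 2 bases before TTGC and TGCG 6 bases before TTGC, each at 35 summits, and GAGC 4 bases before TTGC at 32. They overlap each other and the motif shown with the sequences. Words of 8 bases and gapped words were also ordered by the difference between summits and flanks at these sites, so that contrast follows from the choice. A match is a description of letters and not evidence of binding.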

How the data were processed

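ChIP-seq regions of 4 libraries in 1 group were analysed on build ce11 (WBcel235), from a pooled ranked list, a ranked list for each of 2 biological replicates and a thresholded list. The technical libraries were merged before calling, per the deposited notes. The signal of each region and its −log10 q-value are the authors' deposited values. The ranked lists were deposited as peaks and background together, and no limit on the q-value was set here. What aligner and caller were used was not given in the sources used here, nor was the threshold. Signal was used to rank and describe regions, and replicate lists were not scaled to each other. Lists on build ce10 were not used here. Depth is unknown, since the lists hold no read counts.

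Positions were set against Ensembl release 115 and sequences read from RefSeq WBcel235 with Python 3.11.15, numpy 2.4.6 and pandas 2.3.3, with exact intervals from scipy 1.17.1 and figures from matplotlib 3.10.9. The plus-strand 5′ end had to lie right of the minus-strand 5′ end. Words on either strand were counted in windows of 50 bp to each side of the summit, and in equal windows centred 200 bp to each side. Class assignment and motif search were checked on planted data with known answers. The members and lists were chosen with earlier results of these data known. Named genes are the pairs of the 25 highest sites, up to 3 members of each list, every pair with both genes in machinery lists, the sites at the limit and K09A11.1. The gapped motif was chosen after the summit sequences had been read. No test was made over regions or genes, and intervals cover counting error only. Alternatives changed the number of regions, windows, annotation, exclusion distance and list used.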

Additional observations from a re-analysis of the deposited data

How the results depend on the processing

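With the 1000 regions of highest signal in place of 3000 there were 175 sites at 175 pairs. Of promoter sites 35.9% were divergent, spacing had a median of 492 bp, 94.3% of summits lay between the 5′ ends, 66.9% held a leading word, 14.3% held GCGGCNNNNTTGC, G+C content was 47.6% and 94 machinery genes had a site. With the authors' thresholded list these were 116 sites, 116 pairs, 37.7%, 480 bp, 97.4%, 70.7%, 20.7%, 49.2% and 59 genes, and the nearer 5′ end was 158 bp away. With 5000 regions the divergent share was 23.9% and G+C content 42%. With a promoter window of 500 and 100 bp the share was 23.9%, spacing 398 bp, the nearer distance 124 bp, summits between the ends 93.2% and sites with a leading word 58.4%. With 1 5′ end per gene spacing was 504 bp, and with the plus-strand 5′ end right of the summit 94.2% of summits lay between. Windows of 25 and 100 bp to each side gave 33.3% and 64.3% of sites with a leading word, and G+C contents of 45.5% and 40.0%. Counting the gene of the nearer 5′ end alone left 75 machinery genes. With summits within 50 or 200 bp, both replicate lists held 52.0% or 86.9% of the sites.

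Using the list of either replicate alone gave 315 to 316 sites, 308 to 310 pairs, divergent shares of 24.6 to 25.1%, median spacings of 533 to 546 bp, nearer distances of 144 to 158 bp, 88.9 to 90.5% of summits between the ends, G+C contents of 41.4 to 43.9%, 47.0 to 47.2% of sites with a leading word, 7.59 to 7.94% with GCGGCNNNNTTGC and 136 to 144 machinery genes. Of 109 alternative values of these results 68 stayed within the spread allowed. For shares that spread was a binomial interval over the sites, and for counts a fixed ratio. For median spacing, nearer distance and G+C content it was the SD between the replicate lists (9.19 bp, 9.55 bp and 1.72 percentage points). Those lists are themselves among the alternatives, so the count of 68 does not measure agreement between replicates. Why the values outside that spread moved was not tested, and the alternatives differ in the regions and bases they take in. GCGGCNNNNTTGC was added after the data were seen. No paired analysis was possible because the samples form 1 group. The lists hold no counts, so the precision of single signal values is unknown, and annotated 5′ ends can lie downstream of transcription starts. No other precipitation was analysed here, so signal of K09A11.1 and signal shared with other tagged proteins cannot be told apart.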
